A study of Homo sapiens with 4 samples.

Results

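Distal regions of open chromatin were compared between AMO1 myeloma cells carrying PHF19 and cells carrying an empty vector, in the pair of ATAC-seq libraries whose titles begin with IFN. Overlapping peaks of the IFN PHF19 overexpression and IFN empty vector lists on chromosomes 1 to 22 were merged into 70033 regions. The 54697 regions (78.1%) that lie more than 2500 bp from both ends of every protein-coding gene are the distal regions. The remaining 15336 are called gene-end regions here. Merging all 4 libraries of the series gave 71853 regions.

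AMO1 is an established line of malignant plasma cells, multiple myeloma per the labels, which give its tissue as blood. The cells carried either PCDH without an insert, the empty vector (genotype WT), or PCDH with PHF19 (genotype PHF19 overexpression), both brought in by transfection. The labels do not say what the IFN prefix stands for, and they name no interferon and no time. The same vectors without the prefix form a second, unprefixed pair that shares no library with the first. Each of the 4 groups holds 1 library, so no difference was tested, and every 95% interval below covers counting error only. The libraries of the IFN-prefixed pair held 16.4 M (mega) fragments with PHF19 overexpression and 65.9 M with the empty vector. The header of the IFN empty vector list also names another project folder than the other 3 lists, so project folder and vector cannot be told apart in this pair.

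ATAC-seq marks DNA that the Tn5 transposase can reach. Open sites far from genes include enhancers, which bind transcription factors and act on promoters over a distance, and they usually differ more between cell states than promoters do. PHF19 is a Polycomb-like protein that recruits Polycomb repressive complex 2, the enzyme complex that places the silencing mark H3K27me3, and high PHF19 is known from aggressive myeloma.

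The height of a region is its largest pileup, the number of fragments covering the summit, per M fragments of the library. A log2 ratio sets the IFN PHF19 overexpression height over the IFN empty vector height and is centred on the median ratio of the regions called in both lists, which was 0.17. Plasma cell markers were open in both libraries. All 10 had a peak, with summed heights of 445 and 274 per M, and SDC1, the plasma cell surface proteoglycan, contributed 314 and 158 of these. Of markers of other cells, 4 of 6 B cell, 5 of 6 T and NK cell, 2 of 5 myeloid and 5 of 6 stromal and epithelial genes had a peak with PHF19 overexpression. With the deeper empty vector library the counts were 5, 6, 3 and 6. Summed heights with PHF19 overexpression and with the empty vector were 34.5 and 34.4 per M for B cell, 36.2 and 28.6 for T and NK cell, 26.8 and 21.1 for stromal and epithelial and 3.3 and 5.28 for myeloid markers. The tallest were CD247 (16.2 and 10.4 per M) and CD3E (13.5 and 12.1 per M), and MS4A1, LYZ and CEBPA had no peak in either library.

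PHF19 itself was checked first. A narrow peak inside the gene, at 120857960 to 120858282 on chromosome 9, held 120 fragments (7.33 per M) with IFN PHF19 overexpression and was called in neither empty vector list, while the unprefixed PHF19 overexpression library had 7.9 per M there. It lies 2309 bp from a gene end and so is not distal. PHF19 also holds 4 distal regions, each with a peak in both lists. Their heights ran from 4.76 to 9.04 per M with PHF19 overexpression and from 5.19 to 9.91 with the empty vector, and their log2 ratios from -0.30 to -0.23. The endogenous distal regions of the gene were thus of similar height in both libraries, on the lower side after centring.

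Sequence was at hand for distal regions that hold the start of a long noncoding RNA or a microRNA, from RefSeq tables on GRCh38.p14. The 300 bases around 4 such starts are shown because their regions differed by 2-fold or more between the libraries at a mean height of at least 2 per M. They were chosen after their values were seen. Each runs from 250 bases before to 50 bases after the start, 5′ to 3′ along the RNA's strand. In CARINH capitals mark 3 matches to the ISRE core (GAAA, any pair of bases, GAAA, the element bound by interferon regulatory factors, of which the first 2 overlap) and 1 GC box (GGGCGG, bound by SP1). In LINC02381 they mark an E-box (CACGTG), a GC box and a pair of CCAAT boxes (CCAAT), in MEF2C-AS2 a CRE (TGACGTCA), an octamer (ATGCAAAT) and a GC box, and in LINC01023 a pair of GC boxes. Both strands were searched, and matches on the reverse strand appear as the reverse complement.
CARINH, chr5:132410679-132410978, plus strand, higher with PHF19: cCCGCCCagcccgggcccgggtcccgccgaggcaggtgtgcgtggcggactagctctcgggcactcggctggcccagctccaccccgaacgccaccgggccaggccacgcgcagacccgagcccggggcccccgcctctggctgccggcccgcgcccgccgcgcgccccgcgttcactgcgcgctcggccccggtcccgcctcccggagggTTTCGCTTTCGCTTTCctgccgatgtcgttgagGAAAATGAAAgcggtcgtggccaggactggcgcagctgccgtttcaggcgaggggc
LINC02381, chr12:54125821-54126120, plus strand, higher with PHF19: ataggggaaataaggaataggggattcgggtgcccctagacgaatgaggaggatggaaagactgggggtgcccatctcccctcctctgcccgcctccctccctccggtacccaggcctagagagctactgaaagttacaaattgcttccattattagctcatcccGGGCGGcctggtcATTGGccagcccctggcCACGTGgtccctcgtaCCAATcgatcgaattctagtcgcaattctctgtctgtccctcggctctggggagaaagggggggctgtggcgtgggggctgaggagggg
MEF2C-AS2, chr5:88675968-88676267, plus strand, lower with PHF19: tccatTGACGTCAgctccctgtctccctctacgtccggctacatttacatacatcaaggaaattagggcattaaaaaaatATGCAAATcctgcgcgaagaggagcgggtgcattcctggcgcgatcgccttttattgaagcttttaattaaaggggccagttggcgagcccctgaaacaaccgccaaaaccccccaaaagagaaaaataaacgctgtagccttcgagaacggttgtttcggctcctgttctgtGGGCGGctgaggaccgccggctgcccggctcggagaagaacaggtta
LINC01023, chr5:108728212-108728511, minus strand, lower with PHF19: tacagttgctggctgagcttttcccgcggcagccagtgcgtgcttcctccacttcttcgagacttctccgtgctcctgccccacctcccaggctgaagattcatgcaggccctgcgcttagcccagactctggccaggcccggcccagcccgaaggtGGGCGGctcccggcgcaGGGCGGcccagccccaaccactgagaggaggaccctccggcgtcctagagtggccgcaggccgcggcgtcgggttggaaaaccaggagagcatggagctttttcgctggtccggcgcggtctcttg

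The ISRE core occurs in 3.57% of all 33725 windows of this length, in 4.22% of the 12569 windows at long noncoding RNA starts and in 5.26% of the 1369 that overlap a distal region. The shares over all windows were 45.0% for the GC box, 34.4% for the CCAAT box, 7.18% for the E-box, 1.87% for the CRE and 1.75% for the octamer. A match describes the letters only. The region at CARINH, a noncoding RNA that neighbours the interferon factor gene IRF1, spans 132410323 to 132411838 on chromosome 5. It held 147 fragments (8.98 per M) with PHF19 overexpression and 230 (3.49 per M) with the empty vector, a log2 ratio of 1.19 (0.88 to 1.5). In the unprefixed pair the heights were 9.0 and 4.24 per M and the ratio was also 1.19. Distal and gene-end regions within 2.5 Mb had a median of 0.37, so the stretch around it was also raised. At LINC02381, which starts in the HOXC neighbourhood on the strand opposite to FAM242C in the same region, the heights were 3.85 and 1.44 per M (63 and 95 fragments) and the ratio was 1.25 (0.76 to 1.72), with 0.78 in the unprefixed pair. The region at MEF2C-AS2, antisense to the B cell factor gene MEF2C, had 5.98 and 11.5 per M (98 and 757 fragments) and a ratio of -1.11 (-1.43 to -0.81), against -1.24 without the prefix. LINC01023 had 2.99 and 5.63 per M and -1.08 (-1.54 to -0.65), against -1.45. The local medians were -0.51 and -0.52 around these and -0.01 at LINC02381. All 4 regions thus lay on the same side in both pairs.

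Among distal regions, 29345 (53.7%) had a peak in both lists, 23528 (43%, Wilson 95% interval 42.6 to 43.4) in the IFN empty vector list alone and 1824 (3.33%, 3.19 to 3.49) in the IFN PHF19 overexpression list alone. Over all 70033 regions the last 2 shares were 37.1% and 2.87%, and among gene-end regions 15.9% and 1.22%. Distal regions were therefore more often one-sided than gene-end regions in both directions. Shared distal regions had median heights of 1.65 per M with PHF19 overexpression and 1.5 per M with the empty vector, or 27 and 99 fragments. One-sided regions were lower, with medians of 0.672 per M (11 fragments) in the PHF19 list and 0.501 per M (33 fragments) in the empty vector list. Depth moved with the one-sided counts. At the depth of the IFN PHF19 overexpression library 11749 (49.9%) of the 23528 would have fewer than 8 fragments, the fewest in any peak of that list, and 17479 (74.3%) fewer than 12, its 10th percentile. The remaining 6049 would have at least 12. With both lists cut to the same number of peaks, the one-sided counts were 6420 on the PHF19 side and 7042 opposite.

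The median log2 ratio of the 29345 shared distal regions was -0.01, with quartiles of -0.36 and 0.35 and an SD of 0.58. Gene-end regions had a median of 0.01, quartiles of -0.16 and 0.22 and an SD of 0.37. A 2-fold difference or more was reached by 1309 distal regions higher with PHF19 (4.46%) and 1274 lower (4.34%), against 3.55% and 3.3% of all regions and 1.44% and 0.905% of gene-end regions. The split between the sides depends on the centring: without it 2192 regions were 2-fold higher and 796 lower, and with the trend of the ratio with height removed the counts were 895 and 1332. The 95% interval lay above 0 in 2925 distal regions (9.97%) and below 0 in 4466 (15.2%), against 11.1% and 13.4% of all regions. The share past 2-fold in either direction was 3.75 times that of gene-end regions, and 3.41 times with the trend removed. Gene-end regions were taller, with a median of 99 fragments against 27 with PHF19 overexpression, and the part of counting error was not tested. At a mean height under 1 per M, 9.70% of distal regions were higher and 1.87% lower, against 8.14% and 1.38% of gene-end regions. From 2 to 4 per M the shares were 1.21% and 6.37% against 1.39% and 1.62%.

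**Figure D1:**
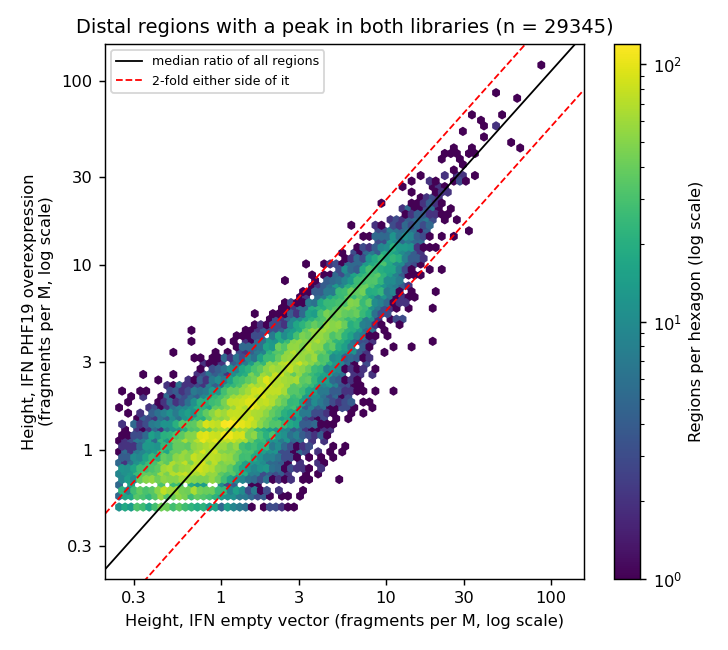
Height of the 29345 distal regions with a peak in both lists, in fragments per M on log axes, IFN empty vector on the horizontal and IFN PHF19 overexpression on the vertical axis. Colour gives the number of regions per hexagon, the black line is the median ratio of all regions and the red lines are 2-fold either side. The 1309 regions above the upper line are mostly low ones, and regions under the lower line reach heights over 10 per M with the empty vector.

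The plot of the heights against each other shows that the sides differ in height. Regions 2-fold higher with PHF19 overexpression had a median mean height of 0.876 per M, with medians of 1.28 and 0.455 per M in the PHF19 overexpression and empty vector libraries. Regions 2-fold lower had 1.89 per M, with 1.16 and 2.59 per M. Among the 11587 shared distal regions with a mean height of at least 2 per M, 93 were 2-fold higher and 588 lower, and with the height trend removed 114 and 489. In the unprefixed pair the counts were 126 and 451 of 10541. Well-covered distal regions past 2-fold were thus mostly those lower with PHF19 overexpression, in both pairs.

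The median ratio of distal regions was 0.22 under 1 per M, 0.00 from 1 to 2, -0.12 from 2 to 4, -0.17 from 4 to 8 and -0.12 at 8 per M and over. Gene-end regions had 0.22, 0.07, 0.03, -0.01 and 0.00 in the same classes. Distal and gene-end regions were alike in the lowest class, where the empty vector list reaches lower (0.243 against 0.489 per M for its lowest peak). They parted above 2 per M, where distal regions lay lower by more than 0.1 in each class. The quartiles of the kinds of region overlap in every class.

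**Figure D2:**
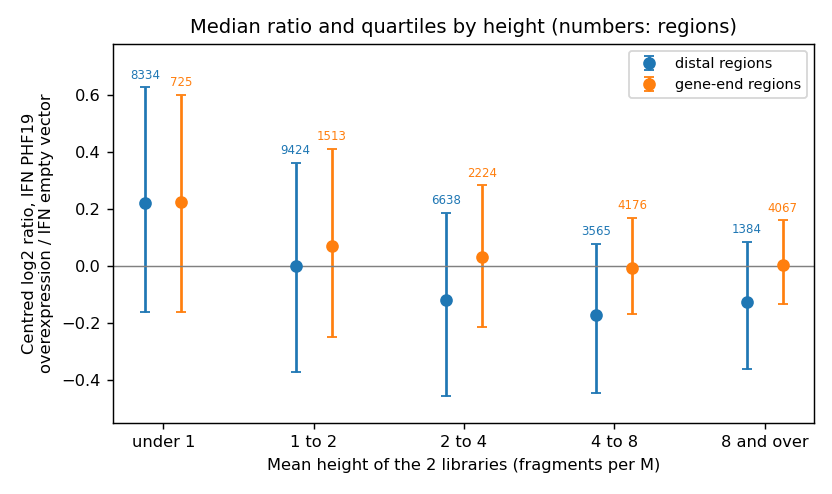
Median centred log2 ratio of distal (blue) and gene-end (orange) regions with a peak in both lists, by mean height of the libraries in fragments per M. Bars span the quartiles and numbers count the regions. Above 2 per M the distal medians sit between -0.17 and -0.12 and the gene-end medians between -0.01 and 0.03.

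The 8 well-covered regions that stood highest with PHF19 overexpression were scattered over 5 chromosomes. The first lies inside GRAMD1B, which encodes a sterol transfer protein, at 123430031 to 123431214 on chromosome 11, 71609 bp from its nearer end. It had 72 fragments (4.4 per M) with IFN PHF19 overexpression and 45 (0.683 per M) with the IFN empty vector, a log2 ratio of 2.52 (1.96 to 3.09). A region between genes, 23712 bp from the ETS-family factor gene ETS2 on chromosome 21, had 3.91 and 0.683 per M and a ratio of 2.35 (1.77 to 2.93). Both regions were under the median height of shared distal regions with the empty vector and above it with PHF19 overexpression.

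RANBP17, a nuclear transport receptor gene, holds a region 3523 bp from its end with 3.91 and 1.05 per M and a ratio of 1.73 (1.22 to 2.24). One inside YWHAQ, which encodes the theta form of the 14-3-3 adaptors, was the tallest of the set with 8.06 and 2.44 per M (132 and 161 fragments), a ratio of 1.55 (1.21 to 1.89). On chromosome 8 a region inside the developmental factor gene EBF2 had 3.42 and 0.910 per M (1.74, 1.19 to 2.29). Another there, 258401 bp from the Golgi phosphatase gene BPNT2, had 5.62 and 1.61 per M (1.63, 1.22 to 2.05). The chromosome 5 regions lay 314309 bp from the kinesin gene KIF4B (1.63) and 463323 bp from PRDM9 (1.51), the meiotic histone methyltransferase gene.

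In the unprefixed pair, 7 of these 8 regions were also at least 2-fold higher with PHF19 overexpression. The ratios there were 2.60 near KIF4B, 2.05 in GRAMD1B, 1.82 in RANBP17, 1.70 in YWHAQ, 1.43 in EBF2, 1.38 near BPNT2 and 1.31 near ETS2. The exception was the region near PRDM9, with heights of 0.988 and 0.767 per M and a ratio of 0.47 (-0.52 to 1.45). The median of regions within 2.5 Mb was between -0.06 and 0.64 at these 8, so in each the region stood above its surroundings.

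The 8 regions that stood lowest had ratios from -3.10 to -2.51, where the higher set ran from 1.51 to 2.52. The lowest lies inside CELF4, which encodes a neuronal RNA-binding protein, at 37433968 to 37435269 on chromosome 18. It had 11 fragments (0.672 per M) with IFN PHF19 overexpression and 337 (5.11 per M) with the IFN empty vector, a ratio of -3.10 (-4.11 to -2.24). Next to the signalling scaffold gene STRIP2, 4957 bp away on chromosome 7, the heights were 1.04 and 5.72 per M (-2.63, -3.43 to -1.93). Inside PTPRC, the gene of the leukocyte phosphatase CD45, they were 0.977 and 5.34 per M (-2.62, -3.44 to -1.90). These regions were above the median height of shared distal regions with the empty vector and below it with PHF19 overexpression.

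The tallest of the lower set lies between genes, 446512 bp from ID2, the gene of an inhibitor of basic helix-loop-helix factors. It held 62 fragments (3.79 per M) against 1324 (20.1 per M), a ratio of -2.58 (-2.97 to -2.21). SV2C, a synaptic vesicle protein gene on chromosome 5, holds one with 2.08 and 10.9 per M (-2.57, -3.11 to -2.07). The others lay inside the kinase gene NLK (0.916 and 4.70 per M, -2.53), inside SSPN, the sarcospan gene (0.672 and 3.40 per M, -2.51), and on chromosome 8 at 101368642 to 101369494 (0.733 and 3.84 per M, -2.56). Only the SV2C region sat in a lower stretch, with a local median of -1.06, while at the other 7 it was between -0.18 and 0.22.

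All 7 of these lower regions that had a summit in both unprefixed lists were at least 2-fold lower there too. The ratios were -2.78 in SV2C, -2.24 in NLK, -2.23 in PTPRC, -1.97 near ID2, -1.81 in CELF4, -1.60 in SSPN and -1.01 near STRIP2. The chromosome 8 region had 4.35 per M with the unprefixed empty vector and no peak with unprefixed PHF19 overexpression. The height near ID2 was 21.1 per M with the unprefixed empty vector and 4.99 with PHF19 overexpression, close to the IFN-prefixed values of 20.1 and 3.79.

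Tall one-sided regions were mostly on the empty vector side. At 2 per M or more there were 639 with the IFN empty vector alone and 21 with IFN PHF19 overexpression alone. Some were narrow: 57.1% of the 21 and 19.1% of the 639 were shorter than 400 bp, against 0.663% of shared regions of 2 to 4 per M. Of the 639, 305 also had a peak in the empty vector list alone in the unprefixed pair, 17 in the PHF19 overexpression list alone, 171 in both and 146 in neither. Of the 21, the unprefixed pair had 8 with PHF19 overexpression alone, 0 opposite, 2 in both lists and 11 in neither. The 305 and 17 were 47.7% and 2.66% of the 639, against 15.2% and 6.63% of all distal regions.

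The tallest regions of the empty vector library alone included one inside TNIP1, an inhibitor of NF-kappaB signalling, at 151083130 to 151083808 on chromosome 5. It had 681 fragments (10.3 per M), the unprefixed empty vector library had 9.54 per M, and neither PHF19 overexpression list had a peak. The same held inside NDRG4 (540 fragments, 8.19 per M, with 8.11 per M in the unprefixed empty vector library) and for a region inside BTG4 at 111391713 to 111392691 on chromosome 11 (464 fragments, 7.04 and 7.27 per M). In TRIO the heights were 9.10 per M with the IFN empty vector and 8.92 and 2.08 per M with the unprefixed empty vector and PHF19 overexpression. Near THY1, the gene of the surface protein CD90, they were 7.15, 7.13 and 0.878 per M. These 5 regions thus had similar heights in both empty vector libraries and no peak with IFN PHF19 overexpression. Without the prefix 3 had no peak with PHF19 overexpression, and TRIO and THY1 had ratios of -1.99 and -2.91. The tallest of all, a 340 bp interval inside BTG4 with 775 fragments (11.8 per M), had no peak in any other list.

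On the PHF19 side the tallest one-sided region lay 442021 bp from ID2, at 8238841 to 8240035 on chromosome 2, with 70 fragments (4.27 per M). It was also called with unprefixed PHF19 overexpression (2.08 per M) and with neither empty vector. It lies 3297 bp from the nearest peak of the other list, beside the region near ID2 described above, which went the other way. Regions 4046 bp from the ferritin gene FTH1 (3.85 per M, 3.46 unprefixed) and 229902 bp from NT5C1B-RDH14 (3.11 per M, 1.65 unprefixed) followed the same pattern. The other 3, near YWHAQ and inside ZNRF2 and CHSY1, had 3.66, 3.36 and 2.81 per M. They were 299, 292 and 277 bp long and had no peak in the other 3 lists.

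The tallest distal regions named here stayed under a 2-fold difference, with ratios from -0.71 to 0.65. Each of these ratios lay outside the quartiles of shared distal regions at 8 per M and over, which were -0.36 and 0.09. The tallest region lies inside SDC1, at 20206599 to 20209371 on chromosome 2, with heights of 122 and 87.7 per M (1994 and 5782 fragments) and a ratio of 0.30 (0.23 to 0.38). A second SDC1 region had 81.1 and 61.8 per M (0.22, 0.13 to 0.31), and one 45997 bp from LAPTM4A had 84.6 and 48.0 per M (0.65, 0.55 to 0.74). A region near PPIAL4F on chromosome 1 had 66.2 and 48.9 per M (0.27), and one 24399 bp from YWHAQ 58.3 and 47.4 per M (0.13). The exception in direction was a region inside HOATZ on chromosome 11, with 44.8 and 65.0 per M and -0.71 (-0.82 to -0.59), and -0.80 in the unprefixed pair. The 72 distal regions of at least 20 per M were unevenly placed, with 29 on chromosome 2, 23 on chromosome 1 and 10 on chromosome 11. Of all 29345 shared distal regions these chromosomes held 3025, 2676 and 1532.

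The unprefixed pair gives the same vectors in libraries that share none with the IFN-prefixed pair. Of the shared distal regions, 22798 had a summit in all 4 lists. Across these regions the ratios of the pairs had a Pearson r of 0.65 and a Spearman rank correlation of 0.61, and 71.6% had the same sign, against 66.3% of gene-end regions. Regions are not independent replicates, neighbours share a chromosome, and each library enters through its own depth. In the unprefixed pair 4.42% of these regions were 2-fold higher and 3.50% 2-fold lower. Over all regions with a summit in both unprefixed lists the shares were 3.54% and 2.77%.

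Of the 2-fold higher regions of the IFN-prefixed pair, 531 had a value in the unprefixed pair. Its median was 0.84, with 511 above 0, 216 at least 2-fold higher and 0 at least 2-fold lower. Of the 2-fold lower regions, 1074 had a value, with a median of -0.89, 1004 below 0, 466 at least 2-fold lower and 3 at least 2-fold higher. Of regions past 2-fold that lacked a peak in 1 unprefixed list, the higher set had 373 in the PHF19 overexpression list and 68 in that of the empty vector. The lower set had 3 and 191. These were 28.5% and 5.19% of the higher and 0.235% and 15.0% of the lower set, against 5.93% and 9.06% of all shared distal regions. Regions past 2-fold thus mostly had the same direction in the unprefixed pair where it gave a value.

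**Figure D3:**
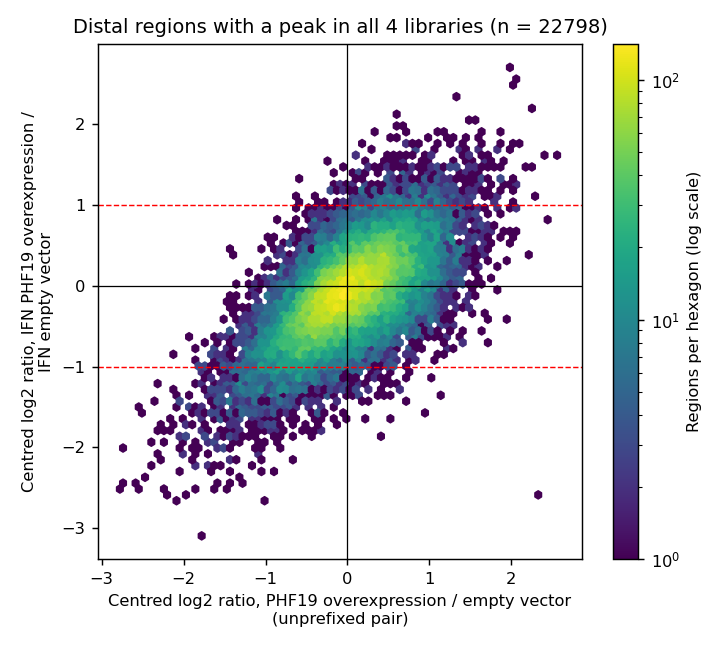
Centred log2 ratios of the 22798 distal regions with a peak in all 4 libraries, unprefixed pair on the horizontal and IFN-prefixed pair on the vertical axis, with the number of regions per hexagon as colour and dashed lines at 2-fold. The cloud runs from lower left to upper right (Pearson r 0.65), and the corners of opposite direction are nearly empty.

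Most one-sided distal regions had no peak in the unprefixed pair. Of the 1824 with IFN PHF19 overexpression alone, 374 (20.5%) were one-sided the same way there and 45 (2.47%) the opposite way. A further 27 were in both unprefixed lists and 1378 (75.5%) in neither. Of the 23528 with the IFN empty vector alone, 5628 (23.9%) were one-sided the same way, 1514 (6.43%) the opposite way, 2246 in both and 14140 (60.1%) in neither. Over all distal regions 6.63% had a peak with unprefixed PHF19 overexpression alone, 15.2% with the unprefixed empty vector alone and 32.2% in neither. The opposite share of 6.43% was thus near that over all distal regions.

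Distal regions were about evenly placed inside and between genes, with 26685 (48.8%) inside a protein-coding gene and 28012 between genes. Their median distance to the nearest gene end was 32.7 kb and the largest 4566 kb, and they were a median of 691 bp long and covered 42.5 Mb of the 61.8 Mb in all regions. The median ratio was -0.02 inside genes and 0.00 between genes. The spread of the ratios was wider farther from genes. From 2.5 to 10 kb the SD was 0.51 and 2.74% and 3.24% of shared regions were 2-fold higher and lower. From 100 to 500 kb the SD was 0.64 with 6.06% and 5.28%, and beyond 500 kb 0.68 with 7.01% and 7.26%. Height fell over the same classes, from a median of 1.92 per M to 1.27 and 1.13 per M, and its part in the wider spread was not tested.

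Ratios also differed between chromosomes and long stretches of them. Chromosome 8 had the highest distal median, 0.25 over 1510 regions, with 0.30 at its gene ends and 0.30 in the unprefixed pair. It held 12.1% of the 2-fold higher and 2.51% of the 2-fold lower distal regions, against 5.15% of all shared ones. Chromosome 15 had the lowest median, -0.11. Chromosome 5 held 11.1% and 14.1% of the 2-fold sets, against 6.45% of all. Of 502 bins of 5 Mb with at least 20 regions, 39 had a median of at least 0.3 and 23 of -0.3 or less, and in the unprefixed pair 37 and 14 of these were past the same limits.

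The highest bin, from 165 to 170 Mb on chromosome 5, had a median of 0.76 over 40 regions, 39 of them above 0. It holds TENM2, an adhesion receptor gene of synapses, the guidance gene SLIT3 and the lymphocyte migration gene DOCK2, and had 0.61 at gene ends and 0.82 in the unprefixed pair. The next were 50 to 55 Mb on chromosome 4 (0.64) and 180 to 185 Mb on chromosome 5 (0.57). The lowest was 75 to 80 Mb on chromosome 5, at -0.97 over 56 regions, 3 of them above 0, with 27 past 2-fold. It holds IQGAP2 and SV2C, and had -0.77 at gene ends and -0.90 without the prefix. The 45 to 50 Mb bin of chromosome 4, with FRYL and the kinase genes TEC and TXK, had -0.90, and 70 to 75 Mb on chromosome 5 had -0.85. In these 6 bins distal regions, gene ends and the unprefixed pair all lay on the same side. With the local median removed, 915 of the 1309 higher and 955 of the 1274 lower regions were still past 2-fold.

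**Figure D4:**
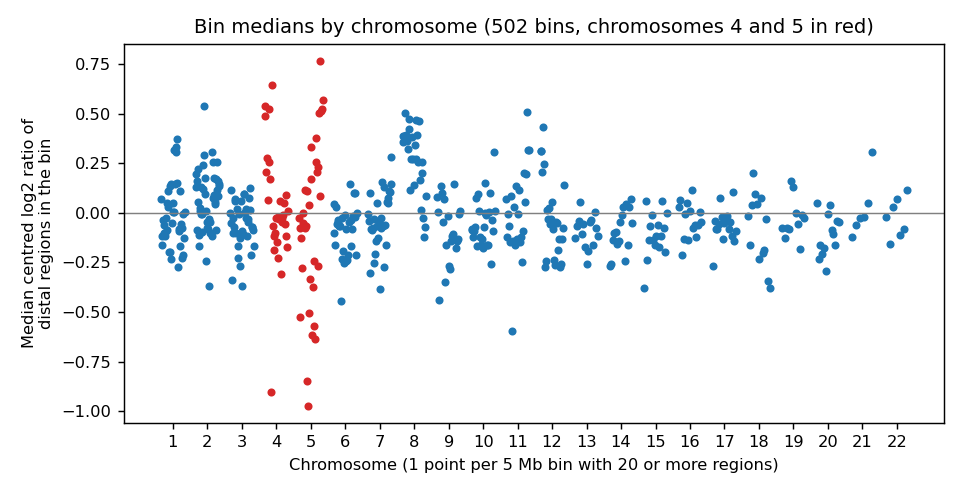
Median centred log2 ratio of distal regions in each of 502 bins of 5 Mb, by chromosome, with chromosomes 4 and 5 in red. Most bins lie within 0.3 of 0, the bins of chromosome 8 lie mostly above it, and chromosomes 4 and 5 hold the highest (0.76) and lowest (-0.97) medians.

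Distal regions lay inside 8328 (43.6%) of 19122 protein-coding genes, with a median of 2 per gene that held any, 1 in 3333 genes and 10 or more in 496. The genes with most were long. OPCML, an adhesion gene, held 51 over 1118 kb, GSE1 48, PTPRN2, a phosphatase-like gene of secretory vesicles, 46 and NBAS, a Golgi transport gene, 42. FRYL held 38, FNDC3B 37, and the transcription activator gene CAMTA1 and the neurexin family gene CNTNAP2 34 each. Per length FRYL stood first of these 8, with 13.4 regions per 100 kb, and CNTNAP2 last with 1.48, where the median over all genes with a region was 3.42.

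Their ratios differed. PTPRN2 had a median of 0.60 over 21 shared regions, 18 of them above 0 and 6 at least 2-fold higher, with 0.53 in the unprefixed pair. CNTNAP2 had 0.40 (15 of 20 above 0) and NBAS 0.36 (7 of 12). FNDC3B had -0.43, with 12 of 13 below 0, and FRYL had -1.14, with all 6 shared regions below 0 and 32 more regions in the empty vector list alone. OPCML (0.26), CAMTA1 (-0.09) and GSE1 (-0.15) lay nearer 0, and with the local median removed OPCML was at -0.05.

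Of 725 genes with at least 5 shared distal regions, 5 had a median at least 2-fold higher (0.69%) and 7 at least 2-fold lower (0.966%). Regions of 1 gene are neighbours and not replicates. SLIT3 was first, with a median of 1.44 over 11 regions, 10 of them above 0 (range -0.23 to 1.90), and 5 more regions with PHF19 overexpression alone. RANBP17, also on chromosome 5, had 1.29 over 5 (0.91 to 1.73). Both lie in stretches raised as a whole, and with the local median removed SLIT3 had 0.60 and RANBP17 0.64. In the unprefixed pair they had 1.24 over 3 regions and 1.82 over 1.

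ASIC2, an acid-sensing ion channel gene on chromosome 17, had a median of 1.05 over 5 regions (0.05 to 2.14) where the local median was -0.06, and 1.01 over 2 in the unprefixed pair. Genes of chromosome 8 followed, PAG1, an adaptor of lymphocyte signalling (1.03), MSRA, a methionine sulfoxide reductase (1.01), and DLGAP2, a synaptic scaffold gene (0.95). All 5, 6 and 9 of their shared regions were above 0, and in the unprefixed pair the medians were 1.01, 1.21 and 0.79. After local median removal they stood at 0.57, 0.59 and 0.62.

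On the lower side CDK14, a cyclin-dependent kinase gene on chromosome 7, had a median of -1.61 over 5 regions (-2.72 to -0.03) and 9 more in the empty vector list alone. ICA1, on the same chromosome, had -1.19 over 5, with -1.20 in the unprefixed pair. The ubiquitin ligase gene MARCHF3 had -1.21 over 5. The unprefixed median of MARCHF3 was nearer 0, at -0.53 over the same 5 regions. That of CDK14 was -0.40 over 3, which is not the same set of regions. These 3 had ratios of -1.61, -0.49 and -0.03 with the prefix and -1.81, -0.40 and 0.40 without. The local medians at CDK14 and ICA1 were -0.03 and -0.04, so both genes stood apart from their surroundings. At MARCHF3 the local median was -0.35, and its bin, 125 to 130 Mb on chromosome 5, had a distal median of -0.64. MARCHF3 thus lies in a low stretch too, and with the local median removed it was at -0.86. SV2C (-1.19 over 10), FRYL (-1.14 over 6) and the scaffold gene IQGAP2 (-1.06 over 5) lie in the low stretches of chromosomes 5 and 4, and after removal of the local median they were at -0.15, -0.17 and -0.01. Their unprefixed medians were -0.75 over 10, -1.36 over 2 and -1.10 over 2.

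**Figure D5:**
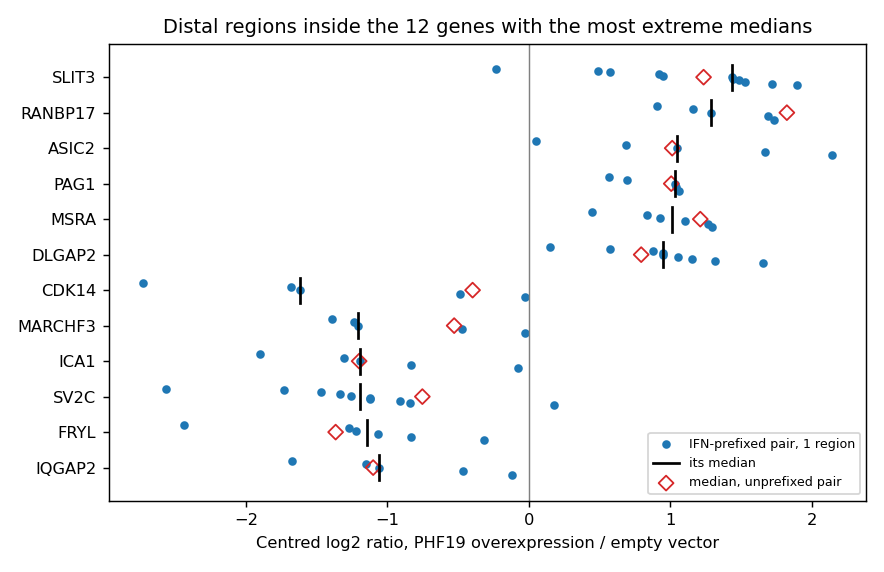
Centred log2 ratios of the shared distal regions inside the 6 genes with the highest and the 6 with the lowest medians (blue points, 1 per region; black bars, medians; red diamonds, medians of the unprefixed pair). The regions of RANBP17, ASIC2, PAG1, MSRA and DLGAP2 are all above 0 and those of CDK14, MARCHF3, ICA1, FRYL and IQGAP2 all below 0, and the diamonds fall on the same side for all 12 genes.

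Genes were also read by 20 lists of function, which can be set beside all distal regions inside genes, with a median of -0.02, 7039 above and 7489 below 0, and 644 higher and 614 lower past 2-fold of 14533. Of all 26685 distal regions inside genes, 858 (3.22%) were one-sided with PHF19 overexpression and 11294 (42.3%) with the empty vector. Plasma cell identity genes hold 38 distal regions, 23 shared, with a median of -0.17, 8 above and 15 below 0, 0 past 2-fold higher and 1 lower. That region lies in TXNDC5, a disulfide isomerase gene of antibody-secreting cells, with 2.32 and 6.27 per M (38 and 413 fragments), a ratio of -1.60 (-2.12 to -1.12) and -1.25 in the unprefixed pair. CREB3L2, a secretory factor gene, had a median of -0.16 over 5 regions, PRDM1, the regulator of plasma cell fate, -0.21 over 3, CD38 -0.58 over 2 and the elongation factor gene ELL2 0.27 over 2. The list median was -0.02 in the unprefixed pair, and -0.06 with regions between genes nearest to a member added.

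The B cell programme had 69 shared regions with a median of -0.13, 28 above and 41 below 0, and 3 past 2-fold in each direction. Of its 116 distal regions, 7 and 40 were one-sided on the PHF19 and empty vector sides. FOXP1, a forkhead factor gene with 19 distal regions, held both extremes. One, at 71050544 to 71051338 on chromosome 3, had 42 and 23 fragments (2.56 and 0.349 per M) and a ratio of 2.71 (1.94 to 3.51), with 1.99 in the unprefixed pair. Another, at 71421337 to 71422662, had 1.89 and 5.69 per M and -1.76 (-2.34 to -1.23), with -1.44 there. So open sites of 1 gene differed in opposite directions in both pairs. A region in ETS1 stood at 1.28 (0.30 to 2.23) and one in IKZF1, the Ikaros gene, at -1.29 (-1.92 to -0.71). After local median removal the list stood at 0.00, and in the unprefixed pair it was 0.02. BACH2, which opposes plasma cell fate, had a median of -0.36 with 8 of 10 regions below 0, MEF2C -0.49 over 4, and PAX5, the B lineage factor, 0.03 over 6.

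Of 46 interferon-stimulated genes, 20 hold 35 distal regions, of which 21 were shared. Over all protein-coding genes 8328 of 19122 (43.6%) hold a distal region, a similar share. Their median was -0.06, with 8 above and 13 below 0, 0 past 2-fold higher and 1 lower, and 1 and 13 regions were one-sided on the PHF19 and empty vector sides. Adding regions between genes whose nearest end belongs to a member turned the median to 0.12. IRF2, a repressor of interferon genes, holds the lower one, with 3.36 and 6.11 per M (55 and 403 fragments), a ratio of -1.03 (-1.47 to -0.63) and -0.56 in the unprefixed pair. Medians were -0.16 over 6 regions for IRF2, 0.03 over 2 for SP140 and -0.25 over 2 for the DNA sensor gene IFI16.

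The interferon signalling list had a median of -0.27 over 12 shared regions, 4 above and 8 below 0. JAK1, the kinase of interferon receptors, held 12 distal regions, and its 8 shared ones had a median of -0.24. One had 1.83 and 3.64 per M and a ratio of -1.16 (-1.76 to -0.61), with -0.88 in the unprefixed pair. The receptor genes IFNAR1 and IFNAR2 held 1 shared region each, at -0.42 and -0.32, and PTPN2, a phosphatase that dampens the pathway, had -0.05 over 2. The list median in the unprefixed pair was -0.26, but it was -0.13 with the local median removed and -0.12 with regions between genes added.

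Genes of the Polycomb complexes, the machinery PHF19 belongs to, had a median of -0.14 over 42 shared regions, 16 above and 26 below 0, and 3 past 2-fold in each direction. Of their 60 distal regions 18 were one-sided, all in the empty vector list, where 42.3% of all distal regions inside genes were one-sided. JARID2, which guides Polycomb repressive complex 2, stood apart from the list median with 0.51 over 9 regions, and had 0.23 over 7 in the unprefixed pair. A pair of its regions, at 1.28 and 0.531 per M and at 1.04 and 0.395 per M, had ratios of 1.10 (0.25 to 1.92) and 1.23 (0.25 to 2.16), from 17 to 35 fragments. In the unprefixed pair the first of these had a peak with the empty vector alone (0.694 per M) and the second had none in either list. EZH1, a methyltransferase subunit of the complex, holds one with 1.95 and 4.93 per M, a ratio of -1.51 (-2.08 to -0.98) and -1.25 in the unprefixed pair. LCOR, whose locus also encodes an accessory protein of the complex, holds one at -1.63 (-2.53 to -0.84), with -1.80 there. KDM2B and PCGF5, of variant Polycomb repressive complex 1, had medians of -0.01 over 5 and -0.03 over 4.

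Polycomb target genes, developmental factors that are silent in most adult cells, lay on the other side. Of 53 members, 14 hold 29 distal regions, and the 16 shared ones had a median of 0.27, with 11 above and 5 below 0, 1 past 2-fold higher and 0 lower. The median was 0.23 in the unprefixed pair over 12 regions, and 0.28 with the local median removed, but with regions between genes nearest to a member added it was 0.09. The region past 2-fold lies in GATA4, a heart and gut factor gene on chromosome 8, with 1.40 and 0.470 per M (23 and 31 fragments) and a ratio of 1.41 (0.56 to 2.23). Its stretch was raised, with a local median of 0.44. The GATA4 median was 0.42 over 3 shared regions, and -0.02 with the local median removed. LMX1B was at 0.58 and PAX2 at 0.32 with 1 shared region each, and PAX3 had 0.27 over 2. Regions of this list were few, with a median height of 2.15 per M against 1.62 per M for all distal regions inside genes. The rank interval of the list's median ratio was -0.21 to 0.54.

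Myeloma genes had a median of -0.12 over 47 regions (-0.19 with regions between genes added), with 1 past 2-fold higher and 4 lower. MAF, a factor gene activated by translocation in some myelomas, had 0.47 over 5 and holds the higher region, with 1.34 and 0.577 per M (1.05, 0.22 to 1.84). IKZF1 and IKZF3, whose proteins are degraded under immunomodulatory drugs, had -0.45 over 8 and -0.28 over 3. TRAF3, a brake on NF-kappaB, had -0.12 over 5, and holds a region with 2.08 and 4.10 per M, a ratio of -1.15 (-1.71 to -0.63) and -1.32 in the unprefixed pair.

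NF-kappaB genes had a median of -0.23 over 28 regions, 10 above and 18 below 0. TNFAIP8 had -0.56 over 10, of which the region at -1.22 (-2.14 to -0.42) was the only one past 2-fold, but the stretch of chromosome 5 around it was low, and with the local median removed its median was 0.06. TNIP1, which also holds the tall region of the empty vector libraries, had -0.83 over 4, all below 0, and -0.39 after removal. MAP3K14, the kinase of the alternative pathway, had -0.23 over 5, and the single shared region of IKBKB, a kinase gene of the main pathway, was at 0.21. After local median removal the list stood at -0.13.

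Apoptosis regulators had the lowest list median, -0.36 over 29 regions, with 5 above and 24 below 0, 0 past 2-fold higher and 2 lower. In the unprefixed pair the median was -0.05 over 29, and the difference between the pairs was not tested. BCL2, the survival gene that venetoclax targets, had -0.44 over 7 with all 7 below 0, BCL2L1 -0.47 over 3, the pro-apoptotic gene BCL2L11 -1.19 over 2 and CFLAR 0.14 over 3. The list had a median height of 4.12 per M, above the 1.57 per M of all shared distal regions, in a range of heights where distal medians were lower, and the part of height in the list's median was not tested. Unfolded protein response genes had -0.19 over 39, with TRAM2, a translocation gene of the endoplasmic reticulum, at -0.62 and all 8 of its regions below 0, ERN1, the stress sensor IRE1 alpha, at -0.25 over 8 and EIF2AK3, the sensor PERK, at 0.31 with 4 of 4 above 0.

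The remaining lists had medians of -0.34 for IL6 and JAK/STAT3 (30 regions), -0.19 for cell cycle (15), -0.25 for housekeeping (6), -0.11 for AP-1 and stress (8) and -0.04 for adhesion and homing (20). The last became 0.00 when regions between genes were added. MHC class I and II had -0.08 over 5 and -0.19 over 4, with CIITA, the master regulator of class II, at -0.25 over 3. Markers of other cells had 0.13 (T and NK, 22 regions), 0.07 (myeloid, 9) and -0.33 (stroma and epithelium, 14). Members differed within these lists. Among T and NK markers CD247, the T cell receptor zeta chain gene, had 0.46 with 6 of 7 above 0 and NCAM1 0.23 over 4, while ZAP70 was at -0.42 and KLRD1 at 0.01 with 1 shared region each. Among stromal and epithelial markers CDH1, the epithelial cadherin gene, had -0.61 with 5 of 6 below 0, PDGFRB -0.19 over 2 and KRT8 -0.97 over 1, while ACTA2 was at 0.84 over 1. With regions between genes added, the medians were 0.05 for T and NK markers, -0.06 for stroma and epithelium, -0.17 for IL6 and JAK/STAT3, -0.11 for housekeeping and -0.22 for AP-1 and stress. Counts past 2-fold in these lists were 0 to 2 higher and 0 to 4 lower each.

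Few distal regions held the start of a known noncoding gene. Starts of long noncoding RNAs lay in 1236 (2.26%), and 969 of these (78.4%) had a peak in both lists against 53.1% of the other distal regions. Their median height was 3.56 per M against 1.54, their median ratio -0.04, and 17 (1.75%) were 2-fold higher and 34 (3.51%) lower, against 4.55% and 4.37% of the other distal regions. Starts with a LOC symbol were left out of the named ones. Other named starts past 2-fold and at least 2 per M were LINC02736 (-1.28), LINC03000 (-1.30), BTBD3-AS1 (-1.07) and LINC02754 (-1.20). All of these were lower with PHF19 overexpression.

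MicroRNA hairpins lay in 47 distal regions, 42 of them with a peak in both lists, at a median ratio of 0.09. The 3 genes that encode the same miR-9, a microRNA of neural development, all lay in distal regions, and their regions differed in direction. The mature sequences are shown with the seed, bases 2 to 8, in capitals.
hsa-miR-9-5p: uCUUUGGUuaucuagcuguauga
hsa-miR-9-3p: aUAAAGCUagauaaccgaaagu
The MIR9-1 region on chromosome 1 had 21.5 and 14.7 per M (352 and 972 fragments) and a ratio of 0.37 (0.19 to 0.55), with 0.29 in the unprefixed pair. The MIR9-2 region on chromosome 5, at 88665993 to 88667580 beside that of MEF2C-AS2, had 2.32 and 4.99 per M (38 and 329 fragments) and -1.28 (-1.80 to -0.79), with -0.70. The MIR9-3 region on chromosome 15 was called in the PHF19 overexpression lists alone, at 1.53 per M with the prefix (25 fragments) and 1.87 without. The region at the start of its host gene MIR9-3HG had 3.30 and 1.61 per M and 0.87 (0.37 to 1.35), with 0.86 in the unprefixed pair. Local medians were 0.25, -0.51 and 0.01 around the 3 genes.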

How the data were processed

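ATAC-seq peak lists of 4 AMO1 libraries were used, 1 per group. Peaks had been called for each library with MACS2 2.1.2 at a q of 0.01 on paired fragments, per the file headers. Other software listed in the submitters' processing notes is Trimmomatic 0.38, bcl2fastq 2.17 and DiffBind, with hg38 as the build. For the aligner and read filters, nothing is given in the sources used here. Pileup, as deposited by the authors, is the signal at the summit, in unscaled fragments. The −log10 q-value, the −log10 p-value and the fold enrichment ratio were deposited by the authors for each peak. The −log10 q-value served to filter and rank peaks within a list, and the others were not used. Peak calling kept duplicates and used no control, per the file headers, so fragments may include PCR copies. Intervals cover counting error only.

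Summits within a peak were collapsed to the tallest, and peaks overlapping by at least 1 bp were merged. Python 3.11.15 with numpy 2.4.6, pandas 2.3.3 and scipy 1.17.1 computed all values. Genes, promoters and microRNAs came from RefSeq tables (GRCh38.p14), without exons or strand for protein-coding genes, so intron and exon were not told apart. Ratios carry the exact 95% interval of a ratio of counts. Unprefixed heights are the tallest summit inside a region. A list's rank interval comes from the order of its regions, which are not replicates. The steps were tested on simulated data, and merged regions equalled those of bedtools.

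The members and lists were chosen with earlier results of these data known. Named were PHF19, then 8 shared regions per direction by ratio (mean height at least 2 per M, interval on 1 side of 0), 6 one-sided regions per library and 6 regions by height, 8 genes by number of regions, and 6 genes per direction by median (5 or more shared regions). Up to 4 members per list by number of regions, up to 2 regions past 2-fold per direction in 8 lists, and 3 bins per direction were also named. Loci with a LOC symbol are given by place, and 1 list member named by this rule is not reported here. Alternatives were other distances, q, overlap, list length, centring, trend and local median removal, minimum height and fold, and one minimum of 2 per M was chosen after seeing the data.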

Additional observations from a re-analysis of the deposited data

Results flagged for a closer look

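The median log2 ratio of the IL6 and JAK/STAT3 genes was -0.34 over 30 shared distal regions in the IFN-prefixed pair and 0.13 over 28 in the unprefixed pair, so the list medians lay on opposite sides of 0. In the IFN-prefixed pair 13 regions were above and 17 below 0. The rank interval of that median, -0.47 to 0.20, spans 0 and holds the unprefixed median. The difference was not tested. IGF1R, a growth factor receptor gene with 12 shared regions, had -0.36 and 0.12 and so also lay on opposite sides, and IL6R, the interleukin 6 receptor gene, had 0.41 and 0.25 over 4 shared regions. BCL2L1 (-0.47 and -0.33) and IL2RB (-0.98 and -1.03) were below 0 in both pairs.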

How the results depend on the processing

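With 1 library per group nothing could be replicated, and no paired analysis was possible because the groups compared hold 1 library each and the labels give no replicate numbers. The unprefixed pair differs by the prefix and is no replicate. Depth limits one-sided calls on the PHF19 side most. A q of 1e-05 left 1151 regions with PHF19 overexpression alone, and lists of equal length gave 6420 on that side against 7042 on the other, 420 regions 2-fold higher and a median of -0.049. Without centring 2192 were higher and 796 lower (median 0.16). The median was 0.00 centred on distal regions and -0.039 with the height trend removed, which moved the distal minus gene-end difference from -0.03 to -0.087. A mean height of at least 1 per M gave 501 higher (median -0.085), and at least 2 per M, chosen after seeing the data, 93 higher and 588 lower (-0.14). A 1.5-fold limit gave 4163 and 4142. Same signs in the pairs were 73.3% at 1 per M or more and 68.3% with local medians removed. With 10 shared regions per gene, 1 gene passed 2-fold in each direction. The other 31 values of these results stayed within 1.5 times, or the median's spread. Local median removal turned no list median, and added regions between genes turned 2 of 20.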
